A study of Mus musculus with 17 samples.

Results

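Acss2 and 9 other genes whose products make acetyl-CoA, or move the carbon for it, were examined in mouse dorsal hippocampus with and without a working Acss2 gene. The 10 genes were taken by name from a table of 24498 gene symbols: the short-chain acyl-CoA synthetases Acss2, Acss1 and Acss3, the citrate genes Acly and Slc25a1, the pyruvate dehydrogenase genes Pdha1, Pdhb and Dlat, the carnitine acetyltransferase gene Crat, and the thiolase gene Acat1. All 10 were found and all 10 passed the filter on low counts in every comparison. The question was whether any of the other 9 differed between knockout (KO) and wild-type (WT) tissue. Acss2 transcript fell in every KO group, and none of the other 9 genes passed the test between KO and WT.

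The libraries were bulk poly(A) RNA sequencing of dorsal hippocampal slices that held CA1, CA2, CA3 and the dentate gyrus, from mice that, per the labels, were perfused with saline (PBS) and then paraformaldehyde. The KO was constitutive, and KO and WT mice came from homozygous crosses within the offspring of heterozygous breeders. At an age of 6 months the mice were injected in the dorsal hippocampus with tau purified from human Alzheimer's disease cortex (Tau) or with PBS, so that all groups carried this surgery, and tissue was taken 6 months later. The 17 libraries formed 6 groups: male WT PBS (replicates 791, 792 and 793), male WT Tau (771, 772 and 773), male KO PBS (751, 752 and 753), male KO Tau (711, 712 and 713), female WT Tau (331 and 341) and female KO Tau (314, 324 and 325). There was no female PBS group, and sex coincided with the number series of the label, so sex and any batch behind those numbers cannot be told apart. The sources used here did not state that each library was a separate mouse, so p-values measure the spread between libraries.

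Acetyl-CoA is the donor for histone acetylation and the building block of fatty acids and sterols. It does not cross the mitochondrial inner membrane, so the mitochondrial pool and the pool of the cytosol and nucleus are supplied separately. In mitochondria it is made from pyruvate by the pyruvate dehydrogenase complex, from fatty acids and ketone bodies by thiolases, and from acetate by ACSS1. The nuclear and cytosolic pool is supplied by ATP citrate lyase, which cleaves citrate exported by the carrier SLC25A1, and by ACSS2, which activates free acetate in the cytosol and nucleus of neurons and other cells.

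Library totals ran from 14183131 (female KO Tau replicate 314) to 22463635 counts (female WT Tau replicate 341), so that 3 reads, the most that a gene with 0 reads could have expected, stood for 0.134 to 0.212 counts per 1000000 counts of the library (CPM). This limit covers counting error only. No pair of libraries had identical counts. Markers of astrocytes, oligodendrocytes, neurons, microglia and endothelium were all detected in every group. Male KO Tau replicate 711 stood apart from the other male libraries. Its 6 astrocyte markers summed to 6499 CPM against 3309 to 4149 in the 11 other male libraries and 6804 to 7398 in the 5 female libraries. Its 3 inhibitory neuron markers summed to 422 CPM, against 614 to 905 in the other males and 327 to 530 in the females. Its summed markers also lay above the 11 other males for oligodendrocytes (7396 CPM against 2921 to 5715) and microglia (365 against 231 to 329). The oligodendrocyte list was not raised as a whole. Mbp reached 3960 CPM in male KO Tau, against at most 2510 in the other male groups. Mog, Mag and Cnp in male KO Tau stayed below the highest values of other male groups. Summed markers were above the other males for endothelium (158 against 72.2 to 129) and excitatory neurons (9102 against 4219 to 6425) too. The departure was thus not particular to astrocytes. The excitatory sum rested on Camk2a, which reached 7472 CPM in male KO Tau, against at most 4290 in the other male groups. Slc17a7 (at most 1705 CPM) and Neurod6 (at most 221) in male KO Tau stayed below the highest values of other male groups, 1860 and 275. Choroid plexus markers reached 3973 CPM in a single male KO Tau library, and dentate granule cell markers ran from 14.7 to 321 CPM within male KO PBS. The library with 14.7 CPM, replicate 752, had 121 CPM of striatum markers, against 22.5 to 34.5 in the other male libraries, and 345 CPM of neocortex markers, the highest of all libraries. In bulk tissue, fewer cells of a type and less RNA per cell cannot be told apart.

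The promoters of Acss2, Acly and Slc25a1, the genes of the cytosolic and nuclear supply, are shown because these 3 share the motif that a search of the acetyl-CoA genes returned most often. They are RefSeq sequences of GRCm38.p6, 5′ to 3′ on the gene's strand, ending at the base before the annotated gene, with GC boxes (GGGCGG on either strand), CCAAT boxes and E boxes (CACGTG) in capitals.
Acss2, chr2:155517793-155517947, plus strand: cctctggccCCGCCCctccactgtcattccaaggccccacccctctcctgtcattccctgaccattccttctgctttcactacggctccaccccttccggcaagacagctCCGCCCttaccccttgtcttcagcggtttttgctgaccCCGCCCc
Acly, chr11:100528001-100528250, minus strand: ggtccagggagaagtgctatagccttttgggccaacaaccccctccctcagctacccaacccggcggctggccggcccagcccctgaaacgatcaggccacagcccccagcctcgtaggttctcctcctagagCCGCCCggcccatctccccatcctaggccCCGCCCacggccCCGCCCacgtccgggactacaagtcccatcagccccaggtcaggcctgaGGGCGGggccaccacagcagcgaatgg
Slc25a1, chr16:17928220-17928469, minus strand: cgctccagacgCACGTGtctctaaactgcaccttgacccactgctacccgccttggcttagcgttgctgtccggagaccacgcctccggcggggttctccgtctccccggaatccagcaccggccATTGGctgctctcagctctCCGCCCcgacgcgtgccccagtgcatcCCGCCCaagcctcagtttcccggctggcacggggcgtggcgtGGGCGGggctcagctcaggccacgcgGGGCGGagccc

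RefSeq promoters were matched for 7 of the 10 genes. In the 250 bases before the RefSeq start, Acss2, Acly and Slc25a1 each held 4 GC boxes, Acss1 and Pdhb 2, Dlat 1 and Pdha1 none. Of the 4 in Acss2, 3 lie in the stretch shown. Over 27025 mouse promoters of the same length, 32.9% held at least 1 GC box and 4.11% held 4 or more. A CCAAT box was found once each in Acss2 and Slc25a1 and 3 times in Pdhb, against 34.5% of all promoters with at least 1. The E box was found only in Slc25a1 among the 7 and in 6.05% of all promoters. The sterol regulatory element letters TCACNCCAC were in none of the 7 windows and in 1.04% of all promoters.

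In WT hippocampus the genes spanned a wide range of levels, with the pyruvate dehydrogenase and citrate genes high and the acetate-activating genes low. Levels between genes are given as CPM per kb of merged exons over the 8 WT libraries. Pdha1, which encodes the alpha subunit of the first pyruvate dehydrogenase enzyme, was the highest at 58.9 ± 3.70 (SD, n = 8). Acly followed at 36.1 ± 2.58, Pdhb at 31.0 ± 1.93, Acat1 at 30.8 ± 3.89 and Dlat at 29.2 ± 2.01. From Acly to Dlat the library ranges of neighbors in this order overlapped. This describes neighbors only, because the genes were measured in the same 8 libraries. Within each of these libraries Acly was above Dlat. Slc25a1 stood lower at 15.9 ± 1.34. Crat at 9.06 ± 0.769 and Acss1 at 8.63 ± 1.68 overlapped. Acss2 had 4.99 ± 0.375 and Acss3 0.220 ± 0.125 CPM per kb, and neither overlapped its neighbor. The place of Acss2 depended on the length used, since its merged exons hold 10163 bases and its longest transcript 3609. Per kb of longest transcript, Acss2 had 14.0 ± 1.06 and stood seventh of the 10, above Crat (11.6 ± 0.982) and Acss1 (9.84 ± 1.92).

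**Figure D1:**
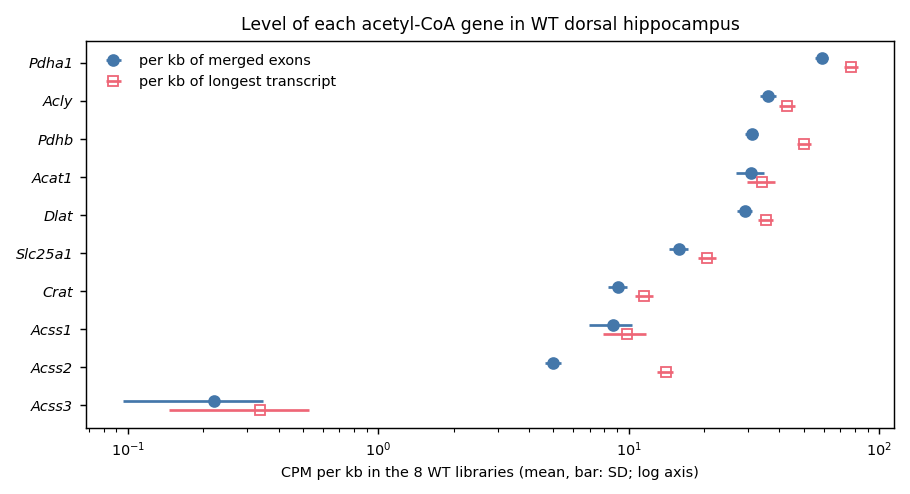
Level of each gene in WT dorsal hippocampus, as mean CPM per kb over 8 WT libraries on a log axis, with bars for the SD. Circles use the merged exon length and squares the longest transcript. Pdha1 was highest and Acss3 lowest by both lengths, while Acss2 moved from 4.99 to 14.0.

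Acss2 encodes the acetyl-CoA synthetase of the cytosol and nucleus and is the targeted gene (ENSMUSG00000027605.18, GRCm38 chr2:155517948-155585724, plus strand). In male WT PBS its level was 49.2, 54.6 and 53.1 CPM (replicates 791, 792 and 793), and in male WT Tau 51.7, 52.2 and 44.0 CPM (771, 772 and 773). In male KO PBS it was 3.14, 4.17 and 3.84 CPM (751, 752 and 753). In male KO Tau it was 5.74, 3.07 and 4.33 CPM (711, 712 and 713). The females had 54.3 and 46.4 CPM in WT Tau (331 and 341), and 8.81, 6.15 and 4.98 CPM in KO Tau (314, 324 and 325). Every KO library lay far below every WT library, which checks the genotype labels.

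Over the 3 strata of male PBS, male Tau and female Tau, Acss2 fell by 3.40 on the log2 scale in KO against WT (SE 0.15, adjusted p = 8.64e-10, edgeR). It was the single gene called by edgeR among 15594 tested, which is 0.00641% of genes. DESeq2 called 2 genes there and limma voom 1. In male PBS mice the log2 fold change was -3.76 (SE 0.19, adjusted p = 6.89e-06), in male Tau mice -3.47 (SE 0.19, adjusted p = 1.41e-05) and in female Tau mice -2.86 (SE 0.26, adjusted p = 0.00347). In each of these 3 comparisons it was again the single gene called by edgeR, or 0.00662%, 0.00662% and 0.00649% of the genes tested. DESeq2 called 4, 7 and 1 genes in the same order, and voom 1, 2 and 1. All 3 male KO Tau libraries, replicate 711 included, entered these fits. The call in females was lost without replicate 324 (adjusted p = 0.0688), without replicate 331 (0.0578), or with only the female libraries in the fit (0.0707), while the fold change stayed between -2.85 and -2.78.

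The transcript was not absent in KO libraries. Between 59 and 125 reads were counted in each of the 9, well above the limit of 3. As a share of the WT mean of the same stratum, the KO libraries kept 7.11% ± 1.00 (SD, n = 3) in male PBS, 8.89% ± 2.70 (n = 3) in male Tau and 13.2% ± 3.90 (n = 3) in female Tau mice. Male KO Tau replicate 711 was the highest male at 11.6%, inside the female range of 9.88% to 17.5%. The genotype difference under Tau was 0.61 log2 units smaller in females than in males, but the interval of this difference, -0.17 to 1.39, included 0 (adjusted p = 0.978, edgeR). The deleted exons were not given in the sources used here, and counts for the whole gene do not show where in the transcript the remaining reads lie.

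**Figure D2:**
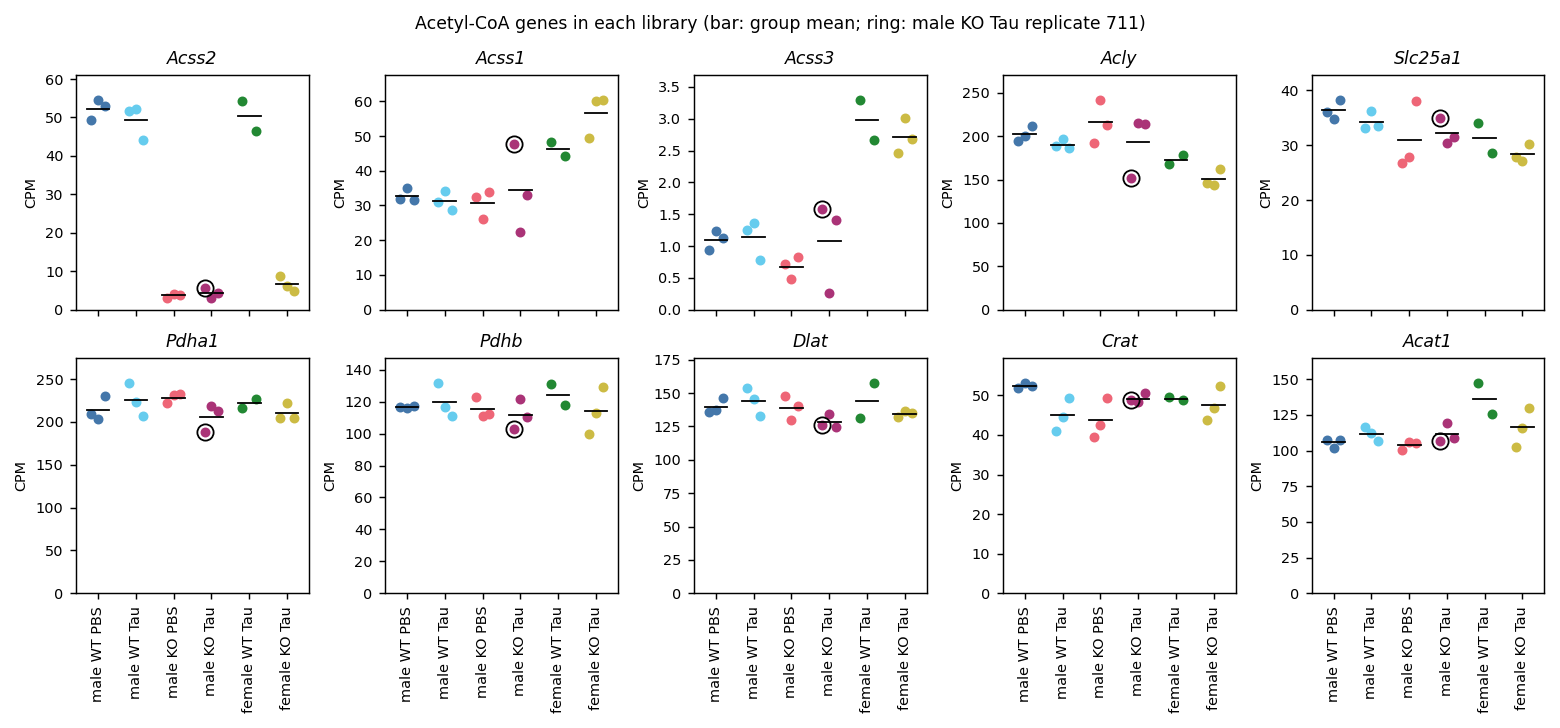
CPM of the 10 genes in each of the 17 libraries, by group, with a bar at the group mean and a ring around male KO Tau replicate 711. Acss2 fell to between 3.07 and 8.81 CPM in the KO libraries, while over all groups KO and WT libraries of the other 9 genes overlapped. Within strata, KO and WT libraries did not overlap for Acss3 and Crat in male PBS and for Acss1 and Acly in female Tau mice. Acss1 and Acss3 were higher and Acly lower in females.

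The other acetate-activating enzyme, ACSS1, works in mitochondria. Acss1 had 31.8, 34.9 and 31.7 CPM in male WT PBS and 32.3, 26.1 and 33.8 CPM in male KO PBS. Under Tau the males had 30.9, 34.3 and 28.7 CPM in WT and 47.7, 22.4 and 32.9 CPM in KO, where 47.7 was replicate 711. Female WT Tau had 48.3 and 44.2 CPM and female KO Tau 49.4, 60.2 and 60.5 CPM. Male KO and WT libraries overlapped, while the 3 female KO libraries all lay above the 2 female WT libraries.

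Acss1 did not pass the test in any KO comparison. Over the 3 strata its log2 fold change was 0.14 (95% interval -0.11 to 0.39, adjusted p = 0.98, edgeR). The upper bound corresponds to a 1.31-fold higher level in KO. Without replicate 711 the log2 fold change was 0.04. In females the difference was 0.34 (interval -0.18 to 0.87, adjusted p = 0.997), and in male Tau mice it was 0.16, turning to -0.16 without replicate 711. Acss1 and Acss2 lie 4.90 Mb apart on chromosome 2, Acss1 at chr2:150618105-150668500 on the minus strand.

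Acss3 encodes a further mitochondrial synthetase, which prefers propionate. Its level was near 1 CPM in males: 0.932, 1.24 and 1.13 in WT PBS, 0.710, 0.484 and 0.824 in KO PBS, 1.25, 1.37 and 0.787 in WT Tau, and 1.58, 0.261 and 1.41 CPM in KO Tau. Female WT Tau had 3.30 and 2.67 CPM and female KO Tau 2.47, 3.01 and 2.67 CPM. The 3 male KO PBS libraries lay below the 3 male WT PBS libraries, but rested on 8 to 18 reads each. Over the 3 strata the log2 fold change was -0.25 (interval -0.77 to 0.28, adjusted p = 0.98, edgeR). Counts of 5 to 60 reads per library made this the least precise of the 10 genes.

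ATP citrate lyase and the mitochondrial citrate carrier form the second supply of the cytosol and nucleus, with carbon from glucose. Acly had 195, 200.0 and 212 CPM in male WT PBS and 193, 242 and 213 CPM in male KO PBS. Under Tau it was 189, 196 and 186 CPM in male WT and 151, 215 and 214 CPM in male KO, where 151 was replicate 711. Female WT Tau had 168 and 178 CPM and female KO Tau 146, 144 and 162 CPM. The male groups overlapped, and the female KO libraries lay below the female WT libraries. The highest value, 242 CPM, was male KO PBS replicate 752, the library with high striatum and neocortex markers.

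Acly did not differ by the test between genotypes, with a log2 fold change of 0.03 over the 3 strata (interval -0.13 to 0.18, adjusted p = 0.996, edgeR). The upper bound corresponds to a 1.13-fold higher level in KO. The strata did not point the same way, with 0.15 in male PBS (0.06 without replicate 752), 0.05 in male Tau and -0.15 in female Tau mice, each with an interval that included 0. Without replicate 711 the difference in male Tau mice was 0.19 (adjusted p = 0.377).

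Slc25a1 had 36.1, 34.8 and 38.3 CPM in male WT PBS and 26.8, 27.9 and 38.0 CPM in male KO PBS. Under Tau it was 33.2, 36.3 and 33.5 CPM in male WT and 34.9, 30.5 and 31.5 CPM in male KO. Female WT Tau had 34.1 and 28.5 CPM and female KO Tau 27.8, 27.1 and 30.2 CPM. The KO mean was below the WT mean in each stratum, but the libraries overlapped in all 3. The log2 fold change over the strata was -0.11 (interval -0.25 to 0.02, adjusted p = 0.98), so that a level in KO more than 1.02-fold above WT lies outside the interval.

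The pyruvate dehydrogenase complex turns pyruvate into acetyl-CoA in mitochondria, and Pdha1, Pdhb and Dlat encode its first enzyme's alpha and beta subunits and its acetyltransferase. Pdha1, on chromosome X, ran from 188 to 245 CPM over the 17 libraries, Pdhb from 99.8 to 131 and Dlat from 125 to 157 CPM. The lowest Pdha1 value was again replicate 711. KO and WT libraries of all 3 genes overlapped in every stratum.

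Their genotype differences over the 3 strata were small. The log2 fold change was 0.01 for Pdha1 (interval -0.12 to 0.13), -0.04 for Pdhb (interval -0.15 to 0.08) and -0.05 for Dlat (interval -0.17 to 0.07). None passed the test (adjusted p = 0.998, 0.98 and 0.98, edgeR). Pdha1 and Dlat had the lowest unadjusted p of the 9 genes in male KO Tau against male KO PBS, with log2 fold changes of -0.19 and -0.17 (adjusted p = 0.631 and 0.639), and the 3 Pdha1 values of KO Tau (188, 218 and 212 CPM) lay below the 3 of KO PBS (222, 231 and 232 CPM).

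Carnitine acetyltransferase moves acetyl groups between coenzyme A and carnitine and so buffers the mitochondrial pool. Crat had 52.0, 53.0 and 52.4 CPM in male WT PBS, the tightest group of this gene. Male WT Tau had 41.1, 44.4 and 49.4 CPM, male KO PBS 39.4, 42.4 and 49.2 CPM, and male KO Tau 48.7, 48.2 and 50.6 CPM. The 3 WT PBS libraries lay above all libraries of the other male groups. WT PBS libraries did not overlap those of male KO PBS in 11.7% of all genes, and those of male WT Tau in 12.2%. The share of genes apart from all other male groups together was not counted. Female WT Tau had 49.6 and 48.8 CPM and female KO Tau 43.7, 46.7 and 52.4 CPM, which overlapped.

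Crat had the lowest unadjusted p of the 9 genes in male KO PBS against male WT PBS, in male WT Tau against male WT PBS and in the male interaction, but it did not pass the correction over all genes. The log2 fold change was -0.21 in KO PBS against WT PBS (unadjusted p = 0.0417, adjusted p = 0.999, edgeR) and -0.24 in WT Tau against WT PBS (unadjusted p = 0.0268, adjusted p = 1). These comparisons share the WT PBS libraries. The male genotype by treatment interaction was 0.36 (interval 0.08 to 0.65, unadjusted p = 0.018, adjusted p = 0.996), and without replicate 711 it was again 0.36 (adjusted p = 0.56). Of all genes, 4.18% had an unadjusted p under 0.05 in this interaction and 0% passed the correction.

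Acat1 encodes the mitochondrial thiolase that splits acetoacetyl-CoA, the last step of ketone body use. It ran from 100.4 to 120 CPM over the 12 male libraries. Female WT Tau had 147 and 125 CPM and female KO Tau 103, 116 and 130 CPM. The female groups overlapped and reached above the males. Over the 3 strata the log2 fold change in KO was -0.03 (interval -0.14 to 0.07, adjusted p = 0.98, edgeR).

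Set side by side, 0 of the 9 genes passed the test over the 3 strata, and 0 of 9 had an unadjusted p under 0.05, against 4.41% of all genes. The median log2 fold change of the 9 genes was -0.03, and that of all genes was 0.00. DESeq2 and limma voom with sample weights also called 0 of 9, with 0 of 9 at an unadjusted p under 0.05. The upper ends of the 95% intervals over the 3 strata, which were not adjusted for 9 genes, ran from a 1.02-fold to a 1.31-fold higher level in KO. Intervals of single strata reached further, to 1.83-fold for Acss1 in female Tau and 2.04-fold for Acss3 in male Tau mice. No gene of the 9 was separated between KO and WT libraries in the same direction in all 3 strata, a pattern found in 0.115% of genes.

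The separate strata were tested in the same way. In male PBS mice 0 of 9 were called and 1, Crat, had an unadjusted p under 0.05, against 4.42% of all genes. The libraries did not overlap for Acss3 and Crat, both lower in KO, which is 2 of 9 genes against 11.7% of all genes. In male Tau mice 0 of 9 were called, 0 of 9 had an unadjusted p under 0.05 (4.71% of all genes) and 0 of 9 were separated (12.6% of all genes). In female Tau mice 0 of 9 were called, 0 of 9 had an unadjusted p under 0.05 (2.89% of all genes), and the libraries were separated for Acss1, higher in KO, and Acly, lower in KO, against 16% of all genes. DESeq2 and voom called 0 of 9 in each of the 3 strata as well.

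**Figure D3:**
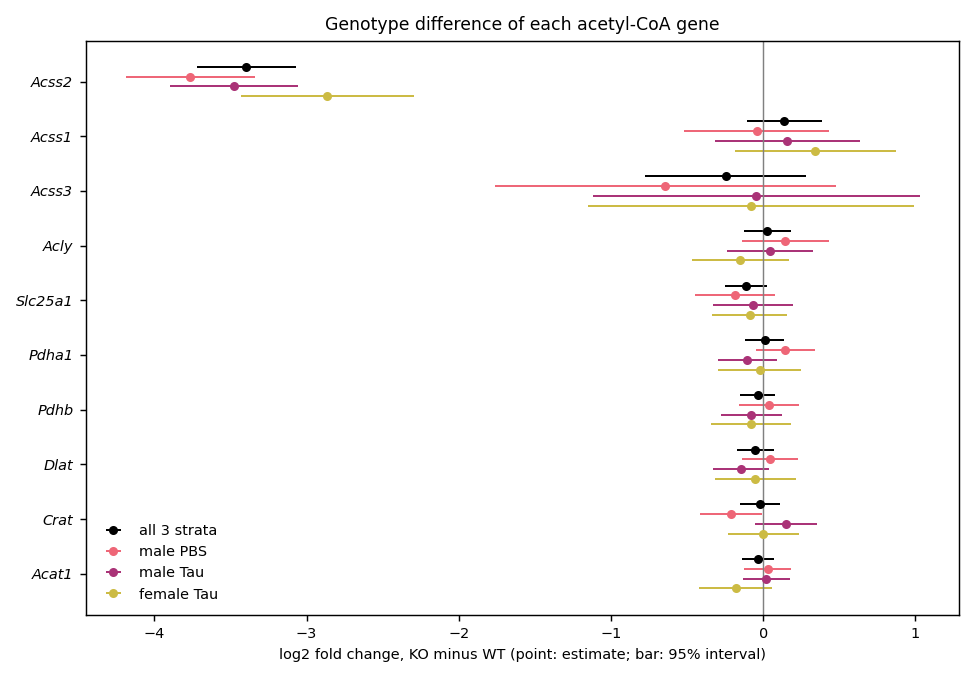
Log2 fold change of each gene between KO and WT, over the 3 strata (black) and in each stratum (colors), with bars for the 95% interval. Acss2 lay between -3.76 and -2.86, and the intervals over the 3 strata of the other 9 genes all included 0. The intervals were widest for Acss3.

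Tau injection was examined within each genotype in males. In WT mice none of the 10 genes passed the test, and 0% of all genes did. Crat was the only gene of the 10 with an unadjusted p under 0.05, against 1.86% of all genes, and the only one in which Tau and PBS libraries did not overlap, against 12.2% of all genes. Acss2 itself had a log2 fold change of -0.10 under Tau (interval -0.47 to 0.26). In KO mice again none of the 10 passed, with 0% of all genes called by edgeR, and 0 of 9 had an unadjusted p under 0.05 against 7.95% of all genes. Acat1, higher, and Pdha1, lower, were separated between KO Tau and KO PBS libraries, against 9.01% of all genes. Between the groups that differ in both genotype and injection, KO Tau and WT PBS males, Acss2 was the single gene called (log2 fold change -3.58, SE 0.19, adjusted p = 1.06e-05, edgeR), or 0.00662% of genes. All 3 KO Tau libraries entered this fit, and DESeq2 called 15 genes and voom 11, none of them among the other 9. There, 0 of the other 9 had an unadjusted p under 0.05, against 6.33% of all genes.

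Interaction terms tested whether the Tau difference depended on genotype in males, and whether the genotype difference depended on sex. None of the 10 genes passed either by edgeR, DESeq2 or voom, and Crat, in the former, was the only gene of the 9 with an unadjusted p under 0.05 by edgeR. In the sex by genotype term under Tau, 0% of all genes passed, and 0 of 9 acetyl-CoA genes had an unadjusted p under 0.05 against 2.94% of all genes. The interval of this term ran from -0.52 to 0.89 for Acss1 and from -0.63 to 0.23 for Acly. Without replicate 711 the terms were 0.51 for Acss1 (adjusted p = 0.384) and -0.33 for Acly (adjusted p = 0.357).

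Among the 9 genes besides Acss2, the only differences that passed the test lay between female and male Tau libraries, a comparison added after the values were seen. Acss1 was 0.58 higher on the log2 scale in females (SE 0.16, adjusted p = 0.0266, edgeR), and Acss3 was 1.29 higher (SE 0.34, adjusted p = 0.0228). Acly was lower, with a log2 fold change of -0.32 (SE 0.10, adjusted p = 0.0401), as was Slc25a1, with -0.23 (SE 0.07, adjusted p = 0.0474). Pdha1, Pdhb, Dlat, Crat and Acat1 did not pass, with log2 fold changes from -0.06 to 0.10.

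These 4 of 9 calls are to be read against 23.8% of all genes called in this comparison and 39.8% with an unadjusted p under 0.05. Of the 9, only Acss3 was separated between the sexes in the 11 Tau libraries, against 10.5% of all genes. For Acss1 and Acly, replicate 711 was the single male Tau library within the female range. The calls were not stable to single libraries. Over the 11 fits that each left out 1 Tau library, Acss3 kept its call in 9, Acss1 in 5, Acly in 1 and Slc25a1 in 0, and without 331 or 773 no gene of the 9 was called. Acly kept its call only without replicate 711, with a log2 fold change of -0.37 (adjusted p = 0.0019), and had adjusted p from 0.0513 to 0.147 in the other fits. Without replicate 711 the differences of Acss1 (0.75, adjusted p = 0.00076) and Acss3 (1.49, adjusted p = 0.00681) were larger too, while Slc25a1 had -0.18 (adjusted p = 0.061). Slc25a1 also lost its call with RLE factors (0.0526), with all 17 libraries in the fit (0.0592) and with every gene of at least 1 count (0.0881), as did Acly with the last (0.0562).

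The same libraries differed in cell type markers. All 6 astrocyte markers were higher in female than in male Tau libraries and 3 of them passed the test, and all 3 inhibitory neuron markers were lower, with 2 called, where 23.8% of all genes were called. Thalamus and endothelium markers were called higher for 2 of 3 each, with median log2 fold changes of 1.35 and 0.45 against 0.49 for astrocytes, and 1 of 3 neocortex markers was called lower. Of the excitatory neuron markers 1 of 3 was called lower and 1 of 3 had a value above 0, with a median of -0.48. The oligodendrocyte, oligodendrocyte precursor and microglia lists each had 1 marker called higher. All 5 choroid plexus markers were lower, with a median of -2.17, but none was called. In the plot of single genes against astrocyte markers, Acss1 had 47.7 CPM in replicate 711, against 22.4 to 34.9 CPM in the 11 other male libraries and 44.2 to 60.5 CPM in the females. Acly had 151 CPM there, against 186 to 242 and 144 to 178 CPM. Acss3 had 1.58 CPM, between 0.261 to 1.41 in the other males and 2.47 to 3.30 in the females. Replicate 711 therefore lay with the females for Acss1 and Acly, and between the sets for Acss3, as it did for its astrocyte markers, which were just below the female range. For Slc25a1 it did not, with 34.9 CPM. Summed markers of other cell types also set replicate 711 apart from the other males, with the excitatory neuron sum resting on Camk2a. The part of cell makeup in these differences was not tested.

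**Figure D4:**
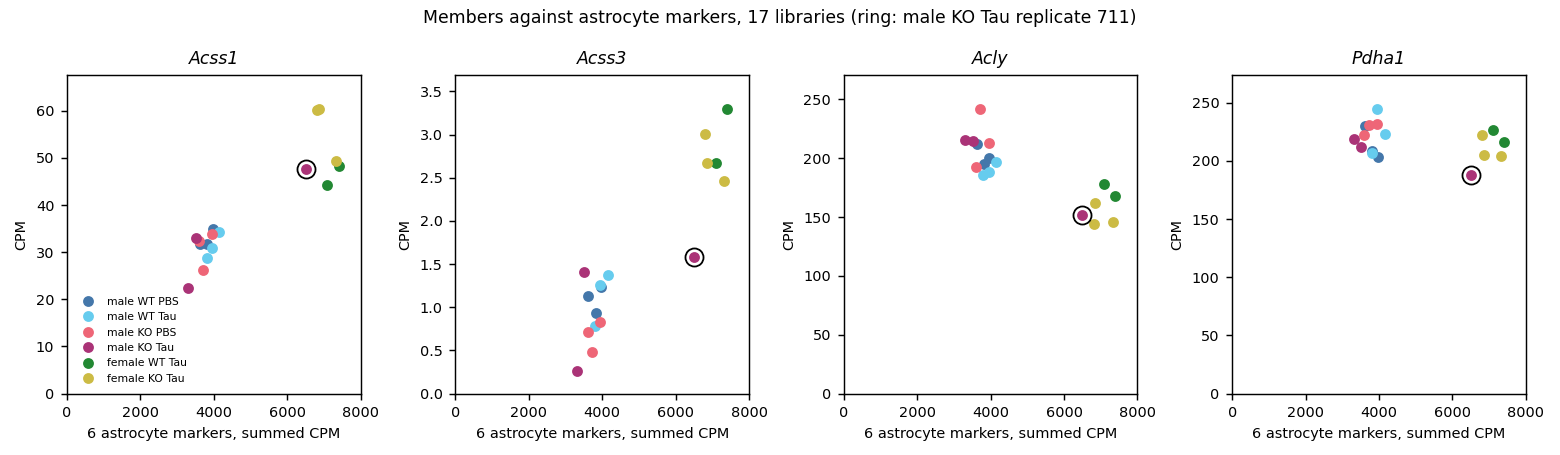
CPM of Acss1, Acss3, Acly and Pdha1 against the summed CPM of 6 astrocyte markers in the 17 libraries, colored by group, with a ring around male KO Tau replicate 711. The 5 female libraries and replicate 711 lie at 6499 to 7398 CPM of markers with high Acss1 and low Acly, and the 11 other male libraries at 3309 to 4149 CPM.

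The neighboring steps of the pathway were read from 61 further genes in 7 lists, of which 60 were tested over the 3 strata. None passed the test between KO and WT by edgeR, DESeq2 or voom, and 2 of 60 had an unadjusted p under 0.05 by edgeR, against 4.41% of all genes. The median log2 fold change was 0.00, as over all genes. By list, the medians ran from -0.04 for acetate release, transport and sirtuins to 0.09 for the cytosolic users of acetyl-CoA and their regulators, where 5 of 6 genes had values above 0. Of the latter, Acaca and Fasn, which encode the enzymes that commit acetyl-CoA to fatty acids, had log2 fold changes of 0.12 and 0.15, and Hmgcs1 of sterol synthesis had -0.16 (adjusted p = 0.98 for each, edgeR).

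Idh1, the cytosolic isocitrate dehydrogenase that uses citrate-derived carbon to make NADPH, had the lowest unadjusted p of the 60 genes tested. Its WT libraries had 37.4, 39.7 and 48.7 CPM in male PBS, 40.9, 42.3 and 42.6 CPM in male Tau, and 48.5 and 50.7 CPM in female Tau mice. Its KO libraries had 28.4, 34.2 and 36.6 CPM, 34.4, 36.4 and 38.6 CPM, and 37.9, 41.6 and 46.0 CPM in the same order of strata. KO lay below WT without overlap in each stratum. The log2 fold change was -0.22 (SE 0.06, unadjusted p = 0.00257), but with an adjusted p of 0.98 by edgeR it did not pass. Among the 10 acetyl-CoA genes and the 60 pathway genes, only Acss2 and Idh1 showed this separation, which 0.115% of all genes did. Idh1 was singled out among 60 genes by the same values, so this share is not a test of it.

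Nat8l, which makes N-acetylaspartate, a store of acetyl groups in neurons, had a log2 fold change of 0.26 over the strata (SE 0.11, unadjusted p = 0.0295, adjusted p = 0.98, edgeR). Its male KO PBS values of 438, 534 and 875 CPM spread widely, and 875 was the highest of all 17 libraries. Aspa, which releases acetate from N-acetylaspartate in oligodendrocytes, was not among the 3 genes of its list with the lowest p, which were Nat8l, Aldh2 (0.15) and the monocarboxylate carrier gene Slc16a1 (-0.15). In the ketone body list the same rule named Acat2 (-0.21), Aacs (-0.17) and Bdh1 (-0.08). In the carnitine list it named Cpt1a (0.15), Cpt2 (0.14) and Slc22a5 (-0.13), and in the citrate list, after Idh1, Idh2 (0.12). Among pyruvate dehydrogenase partners it named Dld (-0.08), Pdhx (-0.09) and the phosphatase gene Pdp1 (0.27), and among other acyl-CoA synthetases Acsl6 (0.11), Acsbg1 (0.09) and Acsl4 (-0.08). These values are log2 fold changes in KO against WT, none of which passed the test.

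**Figure D5:**
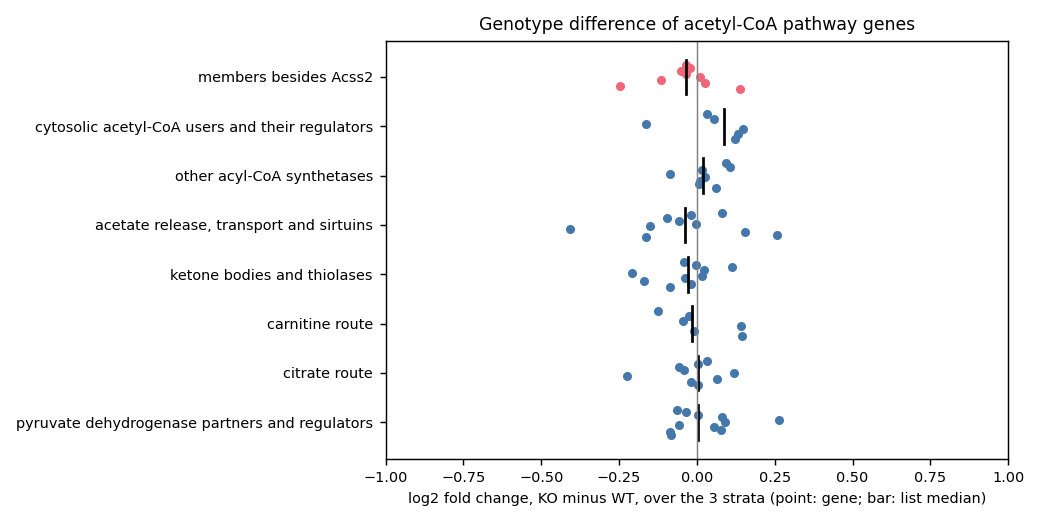
Log2 fold change between KO and WT over the 3 strata for each tested gene of the 7 pathway lists (blue) and for the 9 acetyl-CoA genes besides Acss2 (red), with a bar at each median. The list medians lay between -0.04 and 0.09, and no gene shown passed the test.

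Between female and male Tau libraries, 20 of the 60 pathway genes passed the test, 12 higher and 8 lower in females, beside 23.8% of all genes. Among the higher were the carnitine octanoyltransferase gene Crot (0.73, adjusted p = 0.00891) and the pyruvate dehydrogenase kinase gene Pdk4 (0.72). The synthetase genes Acsl3 (0.57), Acsbg1 (0.53), Acsl6 (0.47) and Acsf2 (0.46) were also higher, as were Hadhb (0.49), Idh2 (0.47), Me1 (0.32), Sirt1 (0.27) and Slc33a1 (0.25). Lower were Aacs, which activates acetoacetate in the cytosol (-0.55), Mdh2 (-0.46), Acsf3 (-0.43), Nat8l (-0.42), Srebf2 (-0.41), Cpt1c (-0.39), Pdk2 (-0.33) and Bdh1 (-0.31). In all other comparisons 0 of the 59 or 60 pathway genes tested passed. Cpt1b did not pass the filter on low counts in any fit, and Acot12 passed it only where female libraries were included.

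As a description, each gene was set beside the tested gene whose log2 CPM deviated most alike from the 6 group means over the 17 libraries. The likeness is a Pearson correlation of points that share library depth and cell makeup. Acss1 was the third most like gene to Acss3 among 15593 (r = 0.884) and the second without replicate 711 (r = 0.891), but was not among the first 3 over the 8 WT libraries. For Acss2 the first was Pik3cg (r = 0.871), for Acss1 Smim3 (0.947), for Acss3 Nt5dc2 (0.942), for Acly Aars (0.962) and for Slc25a1 Ccbl1 (0.945). For Pdha1 it was Ttc27 (0.862), for Pdhb Cops3 (0.960), for Dlat Mllt3 (0.885), for Crat Ggt5 (0.899) and for Acat1 BC031181 (0.969). Without replicate 711, a different gene came first for each of the 10 except Acss3.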

How the data were processed

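Poly(A) RNA of dorsal hippocampus was sequenced in 17 libraries. The table deposited by the authors held whole-number read counts for each gene symbol, with no normalization. Per the labels and the study's methods, the authors aligned reads with STAR 2.5.2 to mm10 (GRCm38) and counted exon reads with HTSeq 0.9.1 in reverse-stranded mode. The annotation release was not given in the sources used here. Whole-gene counts do not resolve exons or isoforms. The study tested male libraries with DESeq2. The paper's figure legend lists fewer KO Tau libraries for that test than the male KO Tau group used here, so the sets of libraries differ.

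The main test was edgeR 4.0.16 (quasi-likelihood F-test, R 4.3.3) after TMM scaling, on genes kept by filterByExpr at a minimum count of 10 and a minimum total of 15, with Benjamini-Hochberg adjustment over all genes at 0.05. Male contrasts came from a fit of 12 male libraries (15098 genes), contrasts with females from 11 Tau libraries (15419 genes), and KO against WT over strata from all 17 libraries with stratum as a term (15594 genes). Intervals are 95%. CPM was scaled to library totals. Lengths and positions came from GENCODE on GRCm38, promoters from RefSeq GRCm38.p6. The alternatives were RLE factors, every gene with at least 1 count, DESeq2 1.42.0, limma 3.58.1 voom with sample weights, other sets of libraries, each replicate left out and the longest transcript as length. The script was tested on simulated data.

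The 10 genes were always named. A gene of a pathway list was eligible where it passed the test, and over the 3 strata up to 3 per list by lowest unadjusted p were eligible too. Up to 3 genes most like each member were eligible. The genes, lists and comparisons were chosen with earlier results of these data known. Female against male Tau was added after the values were seen, and the text also names genes singled out for separated libraries. Values of some genes that this rule names are not reported here.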

Additional observations from a re-analysis of the deposited data

How the results depend on the processing

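No paired analysis was possible because the groups compared share no replicate numbers. Over 10 comparisons and their alternatives, 171 counts of called genes stayed within 1.5 times the main count and 14 did not. The call of Acss2 in female KO Tau against female WT Tau was lost in 3 settings, with 0 genes called in place of 1: only the groups compared, without replicate 324 and without replicate 331. Over the replicates left out, that count ran from 0 to 1. In female Tau against male Tau, 4 genes were called, 2 with every gene of at least 1 count, and 0 to 3 over the replicates left out. It was 0 without 331 or 773, 1 without 324, 325, 713 or 771, and 2 without 314, 341, 712 or 772. The cause was not tested. Among values of single genes, 1710 kept their direction and side of the threshold, 37 lost a call, and 103, none of them called, changed sign. No called value changed sign. DESeq2 called 4338 genes and voom 6189 between female and male Tau, against 3674 by edgeR. Between KO Tau and KO PBS males, edgeR and voom called 0 genes, with 1201 and 1644 at an unadjusted p under 0.05, and DESeq2 called 37, none an acetyl-CoA gene. Between KO Tau and WT PBS males, edgeR called 1, DESeq2 15 and voom 11. For levels per kb, the longest transcript moved 7 of 10 genes by more than 1 SD. Acss3 is limited by depth, at 5 to 60 reads per library. The fits of pairs of groups without replicate 711 and DESeq2 without it were chosen after seeing the data and called the same number of acetyl-CoA genes as the main test between the male groups. Between the sexes, DESeq2 without it called 3.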
